A study of Triticum aestivum with 3 samples.

Results

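Genes with exactly 2 annotated transcripts were examined for how their RNA was divided between the transcripts in shoots of bread wheat. The members are the high-confidence genes, those whose identifier carries no LC suffix, for which exactly 2 transcripts share the identifier before the transcript number. There were 11671 such genes among 105200 high-confidence genes (11.1%) and 165276 genes in all. In every member the transcripts end in the numbers 1 and 2, and are called transcript 1 and transcript 2 here. The RNA came from 3 biological replicates of a single group, shoots of Chinese Spring seedlings, the cultivar of the wheat reference genome, wild type by their titles and with no treatment named. After 2 days of chilling in the dark, the seedlings were grown on plates at 18°C in long days, and the labels give their age as 12 days in one field and 14 days in another. With a single group, no condition was compared, and the spread over the 3 replicates is the error given throughout (SD, n = 3). A shoot holds many cell types, so a share is an average over their RNA, and a change in the makeup of cells cannot be told apart from a change within them.

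A gene yields several transcripts when its introns are removed in different ways or when transcription starts or ends at different sites. An intron can be retained, an exon skipped, or a splice site a few bases away used instead. Within a coding sequence, a difference in length that is a multiple of 3 leaves the reading frame downstream as it was, and other differences shift it, often to an early stop codon. Transcripts with early stop codons are known targets of nonsense-mediated decay, a pathway of RNA degradation. Bread wheat is a hexaploid with the A, B and D subgenomes, so that many genes exist as near-identical copies on matching chromosomes.

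The libraries held 75465873, 76337649 and 67470696 estimated counts in replicates 1, 2 and 3, and the members took 16.6%, 16.3% and 15.7% of them. Shares were calculated from TPM (a transcript's estimated counts divided by its effective length and scaled to the same total in each library) for genes with at least 30 estimated counts in every replicate. This held for 8324 members (71.3%). Of the others, 770 were at 0 in every replicate and 2577 had fewer than 30 counts in at least 1 of them. The median gene TPM of the 8324 genes was 3.93, 4.11 and 2.61 in replicates 1, 2 and 3, lowest in replicate 3. Just inside the minimum, TraesCS1A02G130600 had a lowest count of 30 and shares of transcript 1 of 77.8%, 100% and 100%, and TraesCS2A02G193600, also with a lowest count of 30, had 93.3%, 85.6% and 100%. Just outside it, TraesCS2D02G131000 had 0.0%, 37.9% and 55.6%, and TraesCS3B02G319400 had 0.0%, 43.3% and 100%.

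The lengths of the transcripts carried a strong period of 3 bases. Over all members, transcript 1 was the longer transcript in 6230 genes and transcript 2 in 5342, and 99 had transcripts of equal length. The median difference was 93 bases, with quartiles of 23 and 285 bases. The difference was a multiple of 3 in 7501 of the 11572 genes with unequal lengths (64.8%), and in 3255 of the 4095 genes whose transcripts differed by fewer than 50 bases (79.5%). At 1000 bases or more this fell to 39.4%. A difference of 3 bases was the most frequent of all, in 842 members, followed by 6 bases in 413 and 9 bases in 346, whereas 1 base was found in 30 genes, 2 bases in 31, 4 bases in 81 and 5 bases in 71. The deposited lengths were not coding lengths alone, because only 40.3% of the members' transcripts were themselves a multiple of 3 bases long. Genes with 3 or more transcripts had a like share, 65.1% of unequal pairs of transcripts 1 and 2 and 82.1% of those that differed by fewer than 50 bases.

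**Figure D1:**
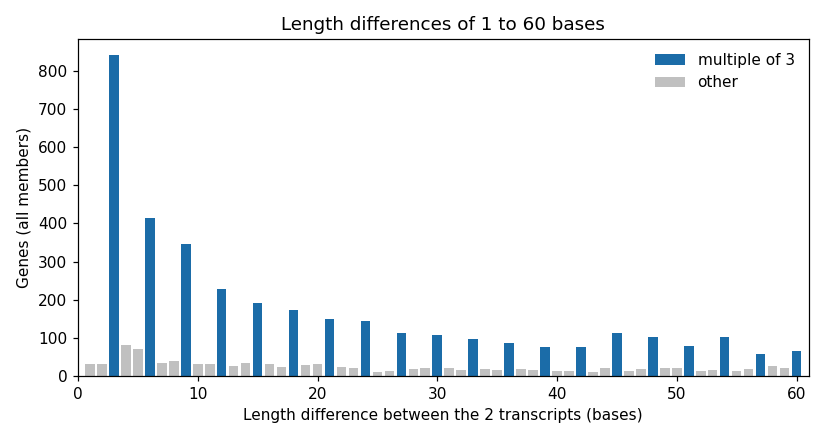
Number of members (vertical axis, genes) at each length difference from 1 to 60 bases between the transcripts of a gene (horizontal axis), with multiples of 3 in blue and other differences in grey. The tallest bar is the 842 genes that differ by 3 bases, and each multiple of 3 stands above its neighbours.

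In most members, nearly all of the RNA was assigned to a single transcript. The median share of transcript 1 was 59.9%, 60.2% and 59.5% in replicates 1, 2 and 3 (59.8% ± 0.342), but this median lies in a sparse region of the distribution. The quartiles over genes were 7.15% ± 0.237 and 98.7% ± 0.310. The mean share of transcript 1 was below 10% in 2152 genes (25.9%) and at least 90% in 2852 genes (34.3%), and each class of 10 points between them held 355 to 503 genes. In 4380 genes (52.6%) the same transcript had at least 90% of the TPM in every replicate, transcript 1 in 2502 and transcript 2 in 1878. Both transcripts had at least 25% in every replicate in 1322 genes (15.9%).

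**Figure D2:**
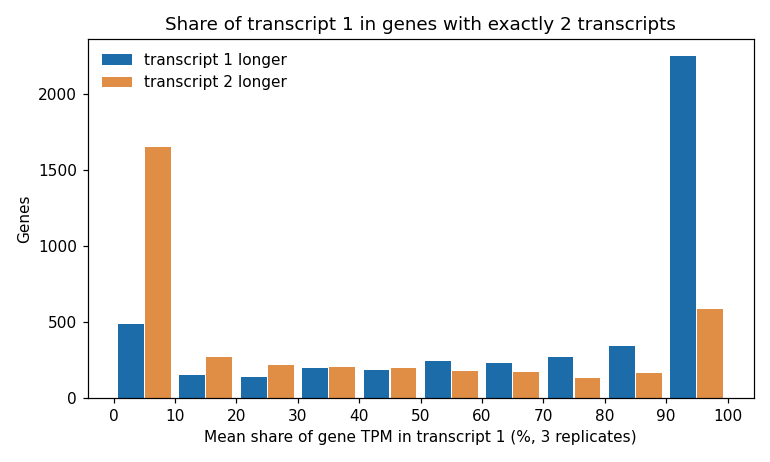
Number of genes (vertical axis) by the mean share of gene TPM in transcript 1 over the 3 replicates (horizontal axis, percent), for genes whose transcript 1 is the longer transcript (blue) and genes whose transcript 2 is the longer (orange). Genes with a longer transcript 1 pile up above 90% and genes with a longer transcript 2 below 10%, with a smaller pile of each at the opposite end.

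The longer transcript was usually the major one. Its median share was 88.3%, 88.1% and 87.7% in replicates 1, 2 and 3 (88.1% ± 0.301) over the 8253 genes with unequal lengths. It had more than 50% of the TPM in every replicate in 5434 genes (65.8%), and the shorter transcript did so in 2079 (25.2%). It had at least 90% in every replicate in 3479 genes (42.2%), against 871 (10.6%) for the shorter. Transcript 1 had more than 50% in 54.9% ± 0.162 of all genes, and the longer transcript in 70.5% ± 0.635 of those with unequal lengths. Where transcript 1 was the longer, in 4492 genes, the longer transcript had a median share of 91.5% ± 0.385, and where transcript 2 was the longer, in 3761 genes, 82.3% ± 0.201. This difference, 9.08, 8.68 and 9.66 points in replicates 1, 2 and 3, was larger than its spread (9.14 ± 0.493 points), although an exact sign-flip permutation test over 3 replicates cannot give a two-sided p below 0.25. That limit holds for every difference between gene classes given here. As a description across genes, the rank correlation between the log2 length ratio and the mean share of transcript 1 was 0.44 (Spearman's rho, 8324 genes). These genes share libraries and read assignment, and are not independent replicates.

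The same direction was seen gene by gene in an edgeR quasi-likelihood test of transcript 1 against transcript 2, with effective length as an offset and Benjamini-Hochberg adjustment over all 12731 genes that had both numbers and enough counts. At an adjusted p under 0.05, transcript 1 was higher in 1621 of the 8324 members (19.5%), where 18.0% of all genes tested were called this way. The count with transcript 2 higher was 1305 (15.7%), against 15.0% of all genes tested. The longer transcript was higher in 2039 of 8253 members (24.7%), with 22.9% over all genes tested, and the shorter in 870 (10.5%), with 10.1% over all. The members thus lay close to the background in each direction, and 8324 of the 12731 genes behind that background are themselves members. In either direction, 35.2% of members and 33.0% of all genes tested were called. Calls among members followed depth. They were 5.95% with 30 to under 100 counts in the lowest replicate, 18.4% with 100 to under 300, and 81.2% with 3000 or more. Rates by depth were not counted over all genes tested. DESeq2 called more members, 3782 with transcript 1 higher and 2970 with transcript 2 higher. Over all 12731 genes tested it called 5617 and 4525. Without replicate 1, 2 or 3, edgeR called 0 members in either direction, with 4135, 4081 and 4314 at an unadjusted p under 0.05. Over all 12836, 12842 and 13354 genes then tested, edgeR also called 0, with 6059, 6013 and 6337 at an unadjusted p under 0.05. By contrast, limma on log2(TPM + 0.1) then called 3691, 3731 and 3784 of 8359, 8366 and 8625 members for transcript 1. For transcript 2 it called 2889, 2903 and 2955. Over all 12836, 12842 and 13354 genes tested, limma called 5498, 5576 and 5658 for transcript 1, and 4412, 4448 and 4535 for transcript 2. A transcript at 0 in every replicate did not by itself give a call, since 175 and 140 of the 1715 such members were called for transcript 1 and transcript 2. Together these were 18.4%, below the 35.2% of members and 33.0% of all genes tested.

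At differences under 200 bases, the share of the longer transcript was higher where the difference was a multiple of 3. With fewer than 50 bases between the transcripts, the median share of the longer was 92.5%, 92.5% and 93.4% in replicates 1, 2 and 3 in the 2291 genes whose difference was a multiple of 3. In the 610 other genes it was 67.1%, 66.5% and 66.8%. The gap of 26.0 ± 0.573 points was the same in sign in every replicate. From 50 to under 200 bases the medians were 97.7% ± 0.123 in 1818 genes and 67.9% ± 1.76 in 825 genes, a gap of 29.8 ± 1.87 points. At 200 bases or more the gap was small. It was -2.08 ± 1.31 points from 200 to under 500 bases, -2.0 ± 0.994 from 500 to under 1000, and 1.30 ± 1.33 at 1000 or more.

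**Figure D3:**
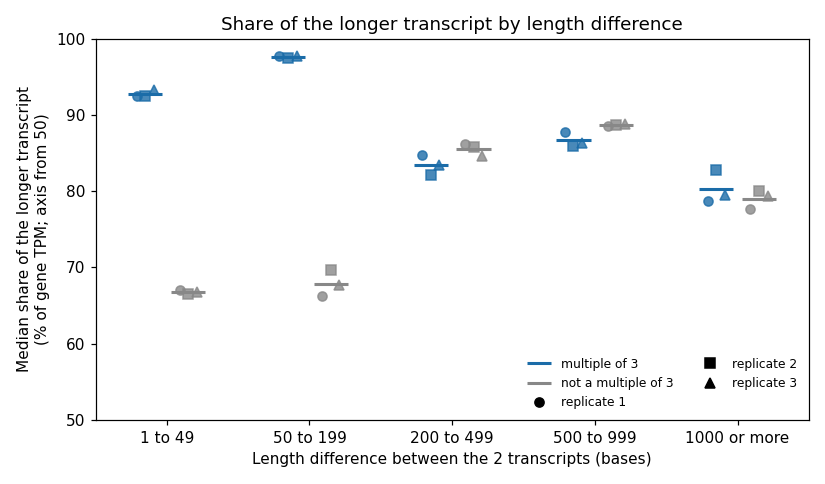
Median share of gene TPM in the longer transcript (vertical axis, percent, starting at 50) by the length difference between the transcripts (horizontal axis, classes in bases), for differences that are a multiple of 3 (blue) and others (grey); symbols are the 3 replicates and lines their means. In the first 2 classes blue lies 26.0 and 29.8 points above grey, and in the other 3 the points of both colours lie close together.

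This gap was found in each subset examined. Over differences under 200 bases it was 28.7 ± 1.38 points in subgenome A, 30.1 ± 1.45 in B and 25.4 ± 1.88 in D. It was 22.8 ± 0.420 points where transcript 1 was the longer and 31.5 ± 1.31 where transcript 2 was. Genes whose difference was a multiple of 3 also had slightly higher levels, with a median gene TPM of 4.04 against 3.52 and a median lowest count of 339 against 302. Among genes with at least 300 counts in every replicate, where the order of the TPM medians was reversed in both short classes (7.82 against 8.35 under 50 bases), the gap was 28.2 ± 1.39 points under 50 bases and 29.8 ± 1.49 from 50 to under 200. Restricting the multiples of 3 to genes whose transcripts are not both a multiple of 3 bases long gave 28.8 ± 1.25 points.

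Counted by genes, the gap was smaller than between the medians. Under 50 bases, the longer transcript had more than 50% of the TPM in 65.3% ± 0.619 of genes at multiples of 3 and in 60.9% ± 1.15 of the others, and from 50 to under 200 bases in 74.2% ± 0.525 and 61.5% ± 0.641. The difference was wider for genes in which it stood nearly alone. Under 50 bases, it had at least 90% of the TPM in 51.8% ± 0.0667 of genes at multiples of 3 and in 35.9% ± 0.715 of the others. It had 10% or less, so that the shorter stood nearly alone, in 22.0% ± 0.197 and 19.2% ± 0.341. In the edgeR test over differences under 200 bases, the longer was higher in 24.3% of multiples of 3 and in 20.6% of the others. The shorter was higher in 11.3% and 15.4%. Over all genes tested, of any length difference, the longer was higher in 22.9% and the shorter in 10.1%. The multiples of 3 lay near these values.

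Among differences of 3, 6, 9, 12 and 15 bases, those of 6 and 9 bases stood highest. Longer multiples of 3 were not examined singly. In the 564 genes that differed by 3 bases, the median share of the longer transcript was 77.9%, 74.8% and 78.3% in replicates 1, 2 and 3. At 6 bases, in 278 genes, it was 98.0%, 98.9% and 98.0%, so that 3 bases lay 21.3 ± 2.45 points below. The median was 97.1% ± 1.28 at 9 bases, 95.0% ± 0.515 at 12 and 86.4% ± 1.69 at 15. The longer transcript had more than 50% in 74.9% ± 1.1 of the genes at 6 bases and 73.2% ± 0.943 at 9, and in 60.6% ± 0.977 at 3, 59.6% ± 0.602 at 12 and 57.9% ± 2.26 at 15. Differences that are no multiple of 3 were rare, with medians of 57.0% ± 7.17 at 4 bases in 61 genes and 84.8% ± 4.01 at 5 bases in 50 genes. Those of 1 and 2 bases, with 20 genes each, had medians of 44.9% ± 0.863 and 55.7% ± 9.94. The longer had more than 50% in 75.3% ± 1.15 of the genes at 5 bases, like the value at 6. At 1, 2 and 4 bases this was lower, 41.7% ± 2.89, 51.7% ± 5.77 and 53.0% ± 6.83.

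Calls for the shorter transcript were least frequent at intermediate differences. They were 13.0% of members under 50 bases, 6.13% from 200 to under 500 and 5.58% from 500 to under 1000, and 12.6% at 1000 bases or more. The calls for the longer were 21.2%, 27.5%, 29.8% and 21.2% in the same classes. Over all genes tested, of any length difference, 10.1% were called for the shorter and 22.9% for the longer. The longer transcript had more than 50% of the TPM in 64.3% ± 0.573 of genes under 50 bases and in 80.5% ± 0.399 from 500 to under 1000. Its median share was nonetheless alike in both classes, 87.6% ± 0.143 and 88.1% ± 0.322, and lower at 1000 bases or more, 79.4% ± 0.966.

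The 6 members with the highest TPM included 5 in which a single transcript had more than 96% in every replicate. The first, TraesCS5D02G169900 on chromosome 5D, had a gene TPM of 3365, 3359 and 8199, of which transcript 2, the longer by 108 bases, took 99.7% in each replicate (log2 ratio of transcript 1 to transcript 2 of -8.34, edgeR adjusted p = 0.00899). Its level was more than 2-fold higher in replicate 3, and the SD of its share was 0.0309 points. In TraesCS5D02G169600, TraesCS5B02G162600 and TraesCS5A02G165400 the transcripts differ by 81 bases, and the longer took 99.93%, 99.96% and 99.93% of the TPM on average and at least 99.9% in every replicate. The longer transcript is transcript 2 in the genes on 5D and 5A and transcript 1 in the gene on 5B, so the numbers ran opposite while the lengths ran alike. Their log2 ratios of transcript 1 to transcript 2 were -10.51, 11.23 and -10.50 (edgeR adjusted p = 0.00899, 0.0141 and 0.0141). How far reads were divided between near-identical copies in the authors' quantification is uncertain for such genes.

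The other 2 differed from these. TraesCS3B02G259300 had a gene TPM of 1690, 1941 and 2542, and here the shorter transcript, transcript 1, took 97.1%, 97.5% and 96.3% with a difference of 239 bases (edgeR adjusted p = 0.0144). TraesCS4B02G140300 kept both transcripts. Its transcript 1, longer by 1101 bases, had a TPM of 1249, 1242 and 1493, and its transcript 2 had 747, 704 and 887. The share of transcript 1 was therefore 62.6%, 63.8% and 62.7%, a range of little more than 1 point, and the log2 ratio of 0.77 passed the test (edgeR adjusted p = 0.0194).

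Among the 4 members with the largest differences in length, the shorter transcript led in 3. TraesCS3B02G222000, with transcripts of 11945 and 6546 bases, gave transcript 1, the longer, 16.4%, 20.1% and 16.6% of its TPM (log2 ratio -2.22, edgeR adjusted p = 0.0219). In TraesCS7B02G129700, with 7285 and 2127 bases, the longer transcript 1 had 16.6%, 16.7% and 20.6% (log2 ratio -2.20, edgeR adjusted p = 0.0298). Both genes gave the shorter transcript about the same excess in each replicate. TraesCS1A02G342500 gave its shorter transcript 1 100%, 99.2% and 99.1%, which did not pass the test (edgeR adjusted p = 0.052), with transcript 2 at 0 counts in replicate 1. In TraesCS4D02G006000 the shorter transcript is 414 bases long and had 12.0, 7.0 and 2.0 counts, so that shares of transcript 1 of 53.1%, 61.4% and 77.1% rest on few reads.

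A transcript was listed at 0 in every replicate in 1715 members, transcript 1 in 724 and transcript 2 in 991. By length, the shorter was at 0 in 1489 of them and the longer in 212. Counts behind such genes could be high. TraesCS6D02G334000 had 17782, 17500 and 8809 estimated counts, all assigned to transcript 2, which is longer than transcript 1 by 39 bases. TraesCS2D02G489200 had 5979, 6409 and 7575, all on transcript 2, longer by 9 bases, and TraesCS4D02G299000 had 6391, 6669 and 4421, all on transcript 2, longer by 156 bases. On the other side, TraesCS4D02G201100, TraesCS2B02G366900 and TraesCS3A02G399000 had lowest counts of 6961, 6720 and 6264, all on transcript 1, which is the longer by 452, 287 and 144 bases. In all 6 genes the transcript at 0 is the shorter. A value of 0 is an estimate of the quantification, which can place all shared reads on a single transcript, so no fold change is given for them. In a further 2379 members, a transcript was at 0 in only 1 or 2 replicates.

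Transcripts of equal length showed an exact tie in some genes. Of the 71 members with equal lengths, 18 had 50% within 0.01 points in every replicate. TraesCS2A02G348700, with 1652 bases in each transcript, had 424 counts on each in replicate 1, 401 in replicate 2 and 230 in replicate 3. TraesCS2A02G546900, TraesCS2A02G559200 and TraesCS3B02G270300 were split in the same way. A quantification of this kind divides reads evenly where none tells the transcripts apart, so an exact tie cannot be told apart from a lack of such reads. Exact ties were found in no gene with unequal lengths. The 53 other genes of equal length were not tied, and in 30 of the 71 a single transcript had at least 90% in every replicate.

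Some genes of unequal length near balance had little spread. Those named here were chosen for the smallest SD of the share, after their values were seen. Over all members with a mean share of 40% to under 60%, the median SD was 6.42 points. TraesCS3D02G336300 had TPM values of 47.5, 50.5 and 30.8 for transcript 1 and 62.2, 64.8 and 39.4 for transcript 2. The share of transcript 1 was 43.3%, 43.8% and 43.9% (43.7% ± 0.336), while the gene TPM was 109.7, 115.3 and 70.2. TraesCS4D02G152200 had shares of transcript 1 of 56.0%, 56.2% and 55.6%, TraesCS1D02G149100 52.5%, 51.7% and 52.1%, and TraesCS3D02G352800 49.8%, 48.9% and 49.5%.

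**Figure D4:**
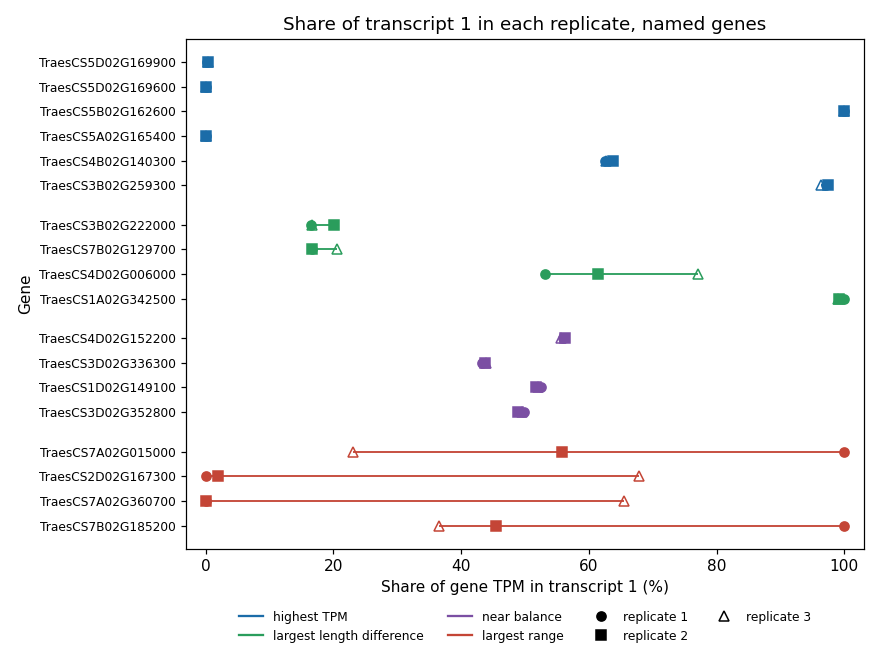
Share of gene TPM in transcript 1 (horizontal axis, percent) in each of the 3 replicates (symbols) for named genes (vertical axis), coloured by the reason for naming, with lines spanning the range. In the genes with the highest TPM and near balance the symbols fall on each other, whereas TraesCS7A02G015000 runs from 23.1% to 100%. The genes near balance were chosen for a small spread and those of the largest range for a wide one.

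Shares agreed between replicates in most members. The SD of the share over replicates had a median of 2.25 points, and the range was within 10 points in 5829 genes (70.0%). Across the 8324 genes, Pearson's r of the shares was 0.959 for replicates 1 and 2, 0.949 for 1 and 3, and 0.950 for 2 and 3, with a median absolute difference of 1.86, 2.08 and 2.13 points. Agreement rose with depth. The median SD was 6.26 points at 30 to under 100 counts in the lowest replicate, 3.59 at 100 to under 300, 1.84 at 300 to under 1000, 1.12 at 1000 to under 3000, and 0.403 at 3000 or more. Genes with a single transcript at 90% or more in every replicate also rose, from 39.7% in the lowest class to 69.1% in the highest. The part of depth alone in the fall of the SD was not tested. A share between 10% and 90% was less even, with a median SD of 6.42 points where the mean share was 40% to under 60%, against 0.619 below 10% and 0.534 at 90% or above.

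**Figure D5:**
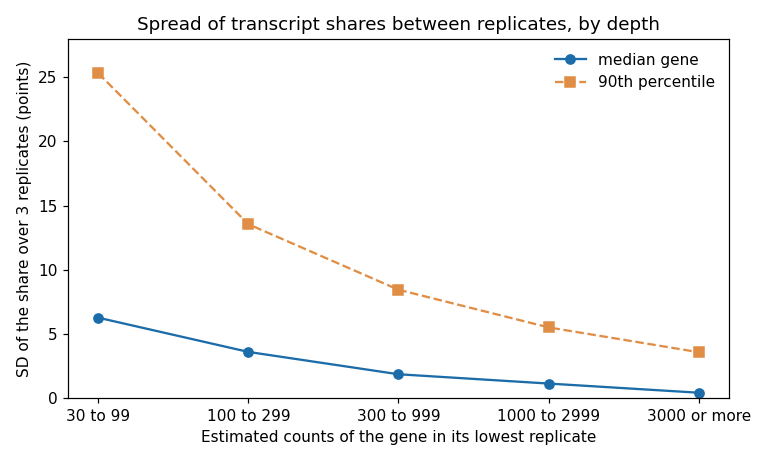
SD of the transcript share over the 3 replicates (vertical axis, percentage points) by the estimated counts of the gene in its lowest replicate (horizontal axis, classes), as the median gene (circles) and the 90th percentile of genes (squares). The median falls from 6.26 points in the lowest class to 0.403 in the highest.

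Shares were also compared between genes whose level in replicate 3 was at least 2-fold different and genes less than 2-fold apart. A share near 0 or 100% has little room to move, so only members with a mean share of 10% to 90% and at least 300 counts in every replicate were used, 1553 genes. In the 259 of them that were at least 2-fold lower in replicate 3 than the mean of the other replicates, the share in replicate 3 differed from that mean by a median of 5.58 points, and by more than 10 points in 25.9% of genes. In the 1268 genes less than 2-fold apart, the values were 4.80 points and 21.0%. The level of these genes was not constant either. Their median TPM ratio of replicate 3 to the others was 0.669, against 0.455 in the 259 genes. The 26 genes at least 2-fold higher in replicate 3 had 4.73 points and 11.5%, not above the genes less than 2-fold apart. The change in share was thus larger only in the genes lower in replicate 3. The genes higher in replicate 3 are few, with 3 of the 26 over 10 points, so no conclusion is drawn from them. The median lowest count was 539 in the genes lower in replicate 3, 758 in those less than 2-fold apart and 421 in those higher. The part of depth in these differences was not tested.

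In 744 members (8.94%) the major transcript was not the same in every replicate. This was the case for 18.4% of genes with 30 to under 100 counts and 3.37% of those with 3000 or more. Replicates 1, 2 and 3 stood alone in 247, 222 and 274 of these genes, so no replicate carried most of them. Some had many counts over the whole gene. TraesCS7A02G015000 had 1002, 1162 and 561 counts, and its transcript 1 took 100%, 55.8% and 23.1%. TraesCS2D02G167300, with a difference of 2 bases, gave transcript 1 0.0274%, 1.98% and 67.8%. TraesCS7A02G360700 gave transcript 1 0.00433%, 0.0% and 65.5%, and TraesCS7B02G185200 100%, 45.5% and 36.5%. In all 4 genes at least 1 replicate had practically nothing on a transcript that held more than 60% in another. Their transcripts differ in length by 84, 2, 123 and 21 bases, in the order named. How many of the reads told the transcripts apart is not known from the estimated counts.

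The subgenomes held members in like numbers, and their median shares differed by at most 5.85 ± 1.34 points (A minus D, transcript 1). Members were 3852 in A, 3885 in B and 3934 in D (10.9%, 10.9% and 11.5% of high-confidence genes), of which 2766, 2802 and 2756 passed the minimum. The median share of transcript 1 was 63.3% ± 0.313 in A, 58.3% ± 0.451 in B and 57.5% ± 1.32 in D. Subgenome A lay above B by 4.19, 5.70 and 5.16 points in replicates 1, 2 and 3 and above D by 5.02, 5.13 and 7.40 points. The order of B and D was not the same in every replicate (0.827, -0.569 and 2.24 points). For the longer transcript the order was another, with 88.4% ± 0.357 in A, 86.3% ± 0.0420 in B and 89.8% ± 0.427 in D. B minus D was -3.92, -3.13 and -3.43 points. The share of genes in which transcript 1 is the longer was 55.4% in A, 54.0% in B and 53.9% in D. One transcript had at least 90% in every replicate in 53.5%, 50.6% and 53.8% of the members in A, B and D.

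Genes with more transcripts were compared through the share of transcript 1 in the sum of transcript 1 and transcript 2. The median share of the longer of these was 85.5% ± 1.11 in 2243 genes with 3 transcripts and 76.0% ± 1.66 in 528 genes with 5 or more. Members lay above them by 2.59 ± 0.811 and 12.0 ± 1.74 points, with the same sign in every replicate. For the share of transcript 1, the difference from genes with 5 or more transcripts changed sign between replicates (-1.45, 2.88 and -0.786 points). Low-confidence genes with exactly 2 transcripts differed most, with a median share of the longer of 63.5% ± 0.462, 24.6 ± 0.262 points below the members. They were also more shallow, with a median lowest count of 129 against 331 in the members. Over all 12731 genes tested, the medians were 58.2% ± 0.294 for transcript 1 and 84.8% ± 0.423 for the longer.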

How the data were processed

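The authors quantified transcripts with kallisto (version not given in the sources used here), with transcript models derived from IWGSC RefSeq v1.1. The submitters' processing notes also name Trimmomatic 0.36, whereas the study's methods describe kallisto as run straight on the read files, so whether these reads were trimmed is unclear. For each replicate the authors deposited a table with the estimated count, TPM, length and effective length of every transcript. Estimated counts are raw sums of reads and parts of reads. TPM was computed by the authors' tool from estimated counts and effective lengths. Reads that fit several transcripts are divided by that method, so near-identical copies are uncertain. The reference used for names, IWGSC CS RefSeq v2.1, holds none of these identifiers, so gene names, roles, sequences and shoot markers were not analysed here.

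Shares were computed from TPM per replicate. For the test, estimated counts were rounded, each library gave a column for each transcript number, and edgeR 4.0.16 (R 4.3.3) was fitted by quasi-likelihood with library as a block and offsets of log effective length and log library size. On simulated counts for the same 12731 genes, 50 at each size among genes with at least 10 counts of each transcript, log2 ratios of 1, 2, 4 and 6 were estimated as 0.97, 1.95, 4.12 and 6.03 and called in 6%, 54%, 86% and 88%, with 0.1% of 1000 unchanged genes called. The counts of both transcripts were drawn independently, so the division of shared reads was not simulated. No ratio was set in genes with a transcript at 0, so these rates do not describe such genes. Of the 1715 members with a transcript at 0 in every replicate, 18.4% were called. Alternatives used DESeq2 1.42.0, limma 3.58.1 on log2(TPM + 0.1) and log2(TPM + 1), other count minimums and other models.

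Members and lists were chosen with earlier results of these data known. Named genes are the 6 with the highest median TPM, the 4 with the largest length difference, the 3 with most counts for each transcript number at 0, the 4 nearest constant balance and the 4 with the largest range (both with 300 or more counts in every replicate), and the 2 on each side of the count minimum. The p-values measure the spread between these 3 samples only.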

Additional observations from a re-analysis of the deposited data

How the results depend on the processing

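Of 78 alternative values, 27 stayed within the mark set for them, and 51 moved. The mark was the replicate spread for medians and 1.5 times the count for calls. For percentages of members it was a binomial interval over genes. Such an interval treats genes as independent, which they are not, so it is no measure of spread between replicates. Shares of estimated counts in place of TPM gave medians of 61.2% for transcript 1 and 89.998% for the longer transcript, a single transcript at 90% or more in 53.8%, a differing major transcript in 8.21%, and medians of transcript 1 of 65.1%, 59.8% and 58.9% in subgenomes A, B and D. A minimum of 100 counts gave 60.4%, 89.3%, 55.6% and 6.76%, and 64.7% for transcript 1 in A, and no minimum gave 59.3%, 84.8%, 49.9% and 14.2%, and 62.4% in A. Leaving out each replicate in turn gave 87.8% to 87.9% for the longer, 55.3% to 55.8% at 90% or more, 5.98% to 6.37% differing, and 63.0% to 63.5% for transcript 1 in A. The percentages at 90% or more and differing are counted over every replicate used. With fewer replicates the former rises and the latter falls by definition, apart from changes in the genes that pass the minimum.

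Counts of calls depended on the model. For transcript 1 and transcript 2 higher they were 3782 and 2970 with DESeq2, 3886 and 3072 with limma on log2(TPM + 0.1), 3865 and 3056 on log2(TPM + 1), 3466 and 2726 without the library block, 2478 and 1973 with a minimum of 100 counts and 1055 and 830 with none. The longer led the shorter in each. Over all 12731 genes tested, the counts were 5617 and 4525 with DESeq2 and 5786 and 4695 with limma on log2(TPM + 0.1). They were 5753 and 4665 on log2(TPM + 1), and 5110 and 4111 without the library block. A minimum of 100 counts gave 3596 and 2889 of 10128 genes, and no minimum gave 1475 and 1196 of 15920. With any replicate left out, edgeR gave 0 calls in both directions, among members and over all genes tested. An unadjusted p under 0.05 was then found in 4081 to 4314 members and in 6013 to 6337 of all genes tested. By contrast, limma, a check chosen after seeing the data, called 3691, 3731 and 3784 members for transcript 1 without replicates 1, 2 and 3. For transcript 2 it called 2889, 2903 and 2955. With edgeR the counts of members were 1621 and 1305 under TMM factors, as in the report. They were 1613 and 1298 with an added ratio of at least 2, and 2310 and 1822 without the length offset. Over all 12731 genes tested, these were 2292 and 1907, 2281 and 1898, and 3333 and 2696. Few counts limit shares near the minimum, and reads that fit both transcripts limit all of them.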

Other observations

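Annotated transcript number went with expression. At least 30 estimated counts were found in 39.96% ± 0.752 (SD, n = 3) of the 88445 high-confidence genes with 1 transcript, in 74.5% ± 0.613 of the members, in 84.8% ± 0.519 of the genes with 3 transcripts and in 95.1% ± 0.427 of those with 5 or more. The median gene TPM was 0.0934 ± 0.00530 with 1 transcript, 1.86 ± 0.418 in the members and 4.44 ± 1.18 with 5 or more. Among the members, Spearman's rho was 0.0075 between median gene TPM and the mean share of transcript 1 across 8324 genes that share libraries, and -9.94e-06 between gene TPM and the share of the longer transcript across 8253.

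Medians spread over a wider range between chromosomes than between subgenomes, with fewer genes behind each. The median share of the longer transcript ran from 79.5% ± 1.21 on chromosome 1D (365 genes) to 94.2% ± 0.405 on chromosome 4D (344 genes), both of subgenome D. The median share of transcript 1 ran from 48.5% ± 0.574 on chromosome 1B to 69.6% ± 1.52 on chromosome 3A. These are the extremes of 21 chromosomes, chosen after their values were seen.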
